A study of Mus musculus with 47 samples.

Results

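Ribosome biogenesis genes encode the RNA polymerase, processing factors and assembly factors that make ribosomes. A set of 33 such genes was chosen by name. A gene was measured where a probe set carried exactly its symbol and no other, and the brightest probe set over the 47 arrays stood for the gene. By this rule 32 of the 33 genes were measured, out of 18194 genes in all. Mrto4, an assembly factor of the large subunit, was not analysed here because its symbol stood only beside other genes' symbols. Array levels are not comparable between probe sets, so each gene was compared only with itself across samples.

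Ribosomes are built in the nucleolus. RNA polymerase I transcribes the ribosomal RNA (rRNA) precursor, small nucleolar ribonucleoproteins (snoRNPs) modify and help to cut it, and successive assembly factors shape the small and the large subunit. Many of these genes are known targets of Myc, the transcription factor that drives growth in this lymphoma model, and the pathway is known to be less active in resting cells.

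RNA levels were measured in primary B cell lymphoma cells from lymph nodes of Eµ-myc mice, in which a Myc transgene is active in the B cell lineage. Every culture also carried a Bcl2 retrovirus (MSCVpuro), which blocks apoptosis, had been selected in puromycin for 48 h, and grew on feeder cells, which were NIH 3T3 fibroblasts irradiated with 20 Gy. The 7 groups were WT (Suv39h1 WT) under Adriamycin (ADR, the DNA-damaging drug doxorubicin) and native, meaning untreated (14 lymphomas each), Suv39h1- under ADR and native (5 each), and Suv39h1ER under ADR with 4OHT, under ADR alone and native (3 each). Suv39h1 is a histone methyltransferase of silenced chromatin. The Suv39h1ER cultures were Suv39h1- with an added Suv39h1ER, a fusion switched on by 4OHT (4-hydroxytamoxifen). ADR was given at 0.05 µg/ml for 5 days, and the 4OHT dose is not given in the labels. The labels call the WT ADR and the Suv39h1ER ADR 4OHT cultures senescent, a lasting growth arrest, and all others non-senescent. The Myc value of an array does not separate the transgene from the resident gene.

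The median log2 level of an array was 4.07 for Suv39h1- lymphoma 1032 under ADR and 4.32 to 4.43 for the other arrays. The 11 measured B cell genes averaged 8.88 in WT ADR and 9.34 in WT native cultures. They averaged 8.91 in Suv39h1- ADR, 8.90 in Suv39h1- native and 8.56 to 8.80 in the Suv39h1ER groups. Single genes differed in WT ADR and WT native: Cd79b averaged 10.70 and 10.99, Vpreb3 7.08 and 9.15, and Ms4a1 8.01 and 7.57. Cd79a averaged 9.1 and 9.9 there, against 7.8 to 8.1 in the other groups. The 6 pairs among native WT lymphomas 2949, 5043, 5766 and 6054 correlated at 0.12 to 0.53 (deviations from the group mean), a range that overlapped the -0.43 to 0.33 of the other 85 pairs. Suv39h1- lymphomas 7890 and 9250 correlated at 0.16, against -0.55 to -0.03 for the other 9 pairs. These are the lymphomas counted once below as alike. The numbers 4936 and 5043 recur under another genotype. The arrays of a culture tracked each other in 5 of 5 Suv39h1- pairs and 10 of 14 WT pairs, but in 2 of 9 Suv39h1ER pairs.

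The mean log2 level of the 32 genes, called the module mean here, was 9.31 ± 0.39 in WT ADR and 9.59 ± 0.35 in WT native cultures (SD, n = 14 each). It was 9.85 ± 0.39 in Suv39h1- ADR and 9.68 ± 0.61 in Suv39h1- native cultures (SD, n = 5 each). In Suv39h1ER cultures it was 9.59 ± 0.20 under ADR with 4OHT, 9.79 ± 0.17 under ADR and 9.61 ± 0.32 native (SD, n = 3 each). The ranges of all groups overlapped. The module mean was lower under ADR in 10 of 14 WT lymphomas and higher in 4, from a change of -1.29 in lymphoma 5560 to 0.79 in lymphoma 2949. Its mean change of -0.28 was smaller than the SD of the changes, 0.61. The lowest native level outside WT belonged to Suv39h1- lymphoma 1032, at 8.67, against 9.52 to 10.09 in the other 4 native Suv39h1- lymphomas. The module mean carries no test, because the genes were chosen with results of these data known.

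**Figure D1:**
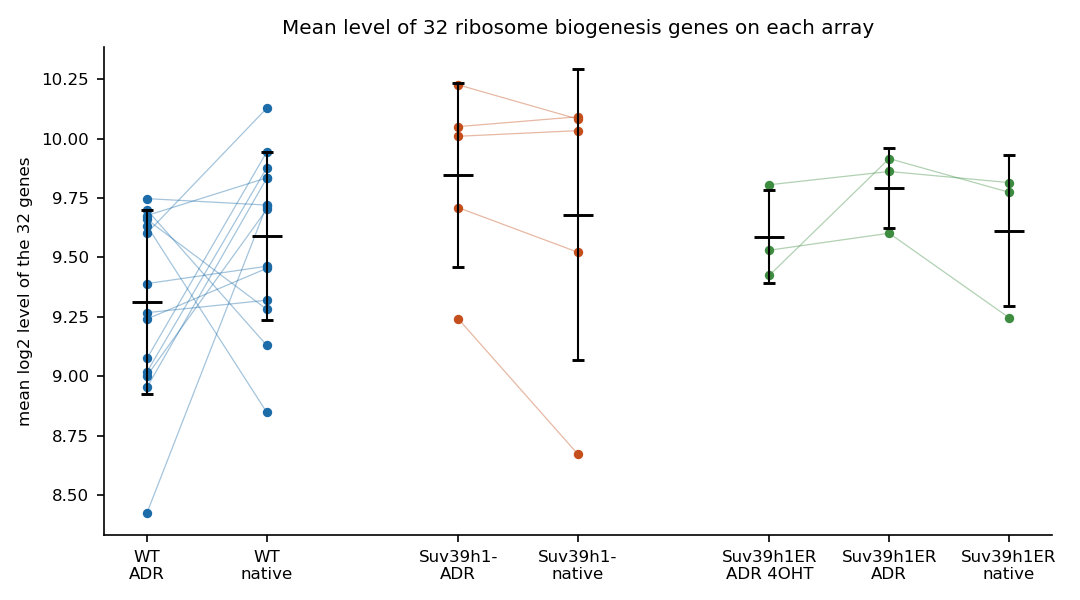
Mean log2 level of the 32 genes (vertical axis) on each of the 47 arrays, by group (horizontal axis). Points are arrays, lines join the arrays of a culture, and black bars give the mean ± SD. WT lymphomas spread from a change of -1.29 to 0.79 under ADR, and the groups overlap.

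Under ADR, 13 of the 32 genes fell in WT lymphomas and 0 rose, as called by limma at a Benjamini-Hochberg adjusted p under 0.05 over all genes. Of all genes, 14.1% were called lower and 16.1% higher in the same comparison, and 30.2% either way. The median change of the 32 genes was -0.24 on the log2 scale, against 0.00 over all genes, and 26 of 32 estimates lay below 0. The falls were largest among the snoRNP proteins. The 6 genes with estimates above 0 (Utp20, Nop2, Tsr1, Bop1, Rrp12 and Heatr1), none of them called, were all factors of small or large subunit assembly. Such factors made up most of the 32 genes: 5 of the small subunit processome, 4 late small subunit factors and 11 large subunit factors. A bulk sample cannot tell fewer cells of a type apart from less RNA per cell. Without the replicate block, that is with arrays of a culture not paired, 10 genes were called lower.

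Of the 7 snoRNP proteins, 5 fell in WT lymphomas. Nop58, a core protein of the box C/D particles that guide ribose methylation of rRNA, had a lowest, median and highest level of 8.11, 9.80 and 10.40 in the WT ADR group, against 9.67, 10.54 and 10.95 in the WT native group. It was lower under ADR in 11 of 14 lymphomas and the groups overlapped, with a change of -0.83 (SE 0.20, adjusted p = 0.00193), or 1.77-fold lower. Dkc1 makes pseudouridine in rRNA as the enzyme of the box H/ACA particles. Its WT levels were 8.01, 10.04 and 10.62 under ADR and 9.18, 10.56 and 11.36 native (lowest, median and highest). Dkc1 was lower in 11 of 14 lymphomas, and its change of -0.63 (SE 0.22, adjusted p = 0.0354) was 1.54-fold. The Dkc1 call was lost with the WT differences fitted alone (adjusted p = 0.0967) and without lymphoma 2581, 3594, 3769, 403, 5560 or 7050 in turn, with a change of -0.45 without 5560. Gar1, another H/ACA protein, ran over 8.29, 9.60 and 10.28 under ADR, against 9.53, 10.24 and 10.72 in native WT cultures. The Gar1 change was -0.62 (SE 0.17, adjusted p = 0.00507), lower in 10 of 14. In all 3 genes the single lowest WT ADR value belonged to lymphoma 5560.

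Fbl, the rRNA methyltransferase of the box C/D particles, fell by 0.58 on the log2 scale (SE 0.12, adjusted p = 0.000524). Nolc1, a chaperone of snoRNP assembly, fell by 0.42 with an adjusted p of 0.0462. Nop56, the partner of Nop58, had a change of -0.38 and Rrp9, a protein of the snoRNP for early precursor cleavage, one of -0.18, and neither passed the test (adjusted p = 0.104 and 0.213).

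**Figure D2:**
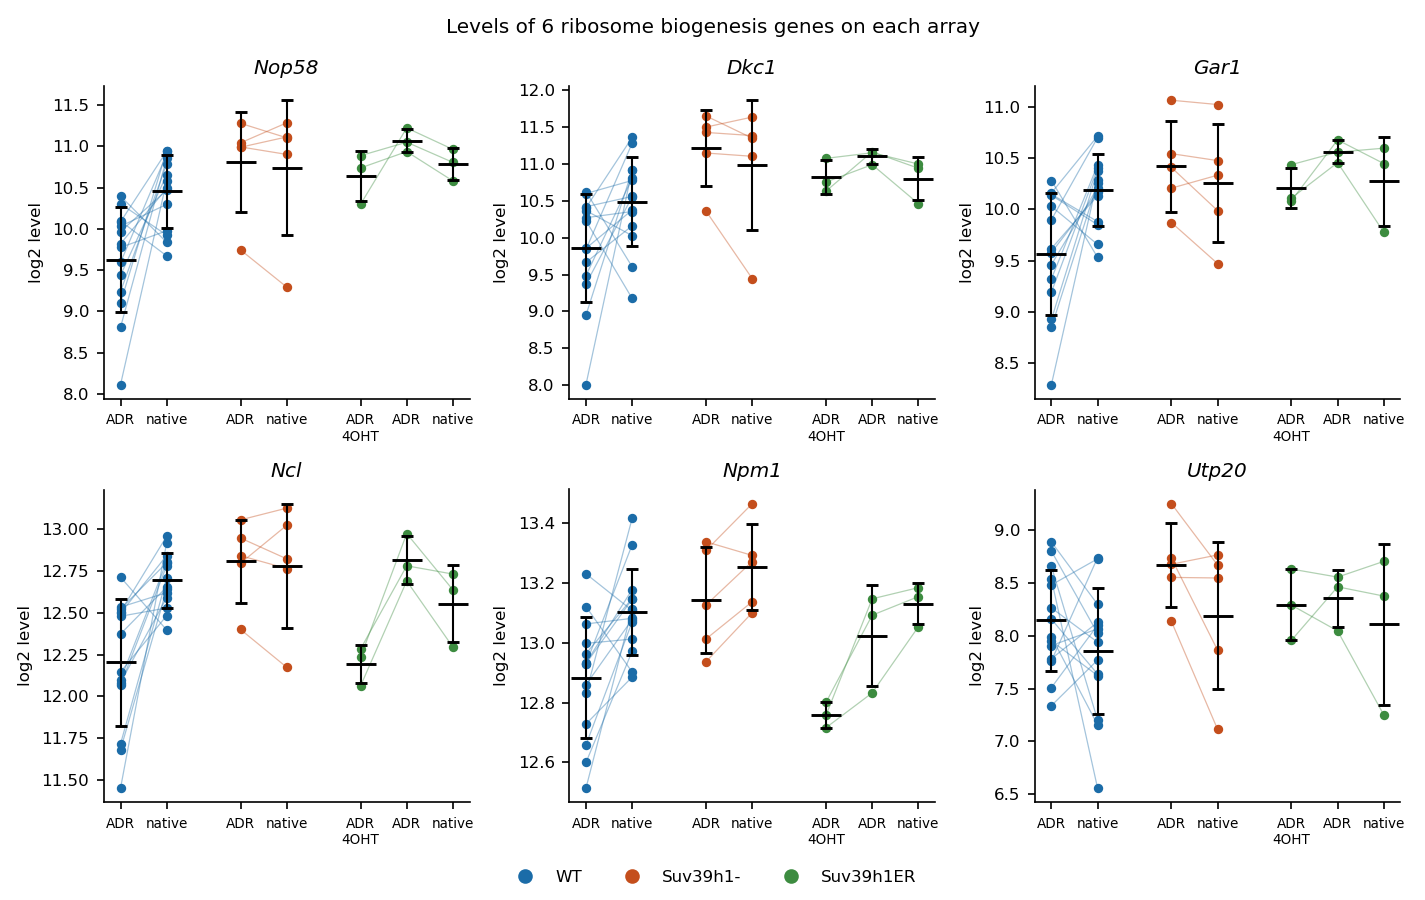
Log2 level (vertical axis) of Nop58, Dkc1, Gar1, Ncl, Npm1 and Utp20 on each array, by treatment within WT, Suv39h1- and Suv39h1ER cultures (horizontal axis). Points are arrays, lines join the arrays of a culture, and black bars give the mean ± SD. The lowest Nop58 and Dkc1 values of the Suv39h1- groups are those of lymphoma 1032.

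Both nucleolar chaperones fell in WT lymphomas. Ncl (nucleolin), an abundant nucleolar RNA-binding protein, had levels of 11.45, 12.26 and 12.71 under ADR, against 12.40, 12.68 and 12.96 native (lowest, median and highest of 14). It was lower in 13 of 14 lymphomas, with a change of -0.49 (SE 0.10, adjusted p = 0.000338). Npm1 (nucleophosmin), a histone chaperone of the nucleolus, had levels of 12.51, 12.93 and 13.23 under ADR and 12.89, 13.09 and 13.42 native. Its change was smaller, -0.22 (SE 0.06, adjusted p = 0.00524), and 12 of 14 lymphomas were lower. Of the RNA polymerase I catalytic subunits, Polr1b fell and Polr1a did not pass. Polr1b had WT levels of 6.53, 7.91 and 8.71 under ADR and 7.09, 8.65 and 9.14 native, with a change of -0.53 (SE 0.19, adjusted p = 0.0330). That call was lost without the block (adjusted p = 0.0683), with the WT differences fitted alone (0.0873) and without lymphoma 1570, 2581, 3594, 3769, 403, 5560 or 7050 in turn. Polr1a had WT levels of 6.81, 7.60 and 8.34 under ADR, against 7.11, 7.95 and 8.35 native, and a change of -0.17 (SE 0.14, adjusted p = 0.418).

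Among the 5 factors of the small subunit processome, the particle that folds and cuts the small subunit rRNA, Noc4l fell by 0.44 on the log2 scale (adjusted p = 0.0122), while Wdr43, Rcl1 and Heatr1 had changes of -0.25, -0.20 and 0.04 that did not pass. Utp20 of this group had the highest estimate of the 32 genes, 0.29 (SE 0.18, adjusted p = 0.267). Its WT levels were 7.34, 8.08 and 8.89 under ADR, against 6.56, 7.98 and 8.74 native, and 8 of 14 lymphomas were higher. Among the 4 late factors, Nob1, the nuclease of the final small subunit rRNA cut, fell by 0.43 (SE 0.09, adjusted p = 0.000646) and was lower in 13 of 14 lymphomas. Ltv1, Rrp12 and Tsr1 had changes of -0.12, 0.05 and 0.08. Tsr1, a GTPase-like factor that keeps immature small subunits from translation, had WT levels of 8.64, 9.71 and 10.18 under ADR and 8.88, 9.60 and 10.17 native, so its groups nearly coincided.

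Of the 11 measured large subunit factors, 3 fell. Wdr12, which works in a complex with Pes1 and Bop1, fell by 0.58 (SE 0.14, adjusted p = 0.00178), whereas Pes1 and Bop1 had changes of -0.18 and 0.08 that did not pass. Nop16 fell by 0.50 (adjusted p = 0.0419) and Noc2l by 0.38 (adjusted p = 0.0144). Nop2, an rRNA cytosine methyltransferase, had WT levels of 7.99, 8.89 and 9.37 under ADR, against 7.90, 8.90 and 9.31 native, and a change of 0.09 (SE 0.15, adjusted p = 0.743). The helicase Ddx18, the GTPase Gnl3 (nucleostemin), Ppan, Nip7 and Rrs1 had estimates between -0.28 and -0.10, and none passed. Ddx21, a nucleolar helicase tied to RNA polymerase I transcription and snoRNA release, had a change of -0.38 with an adjusted p of 0.0616.

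**Figure D3:**
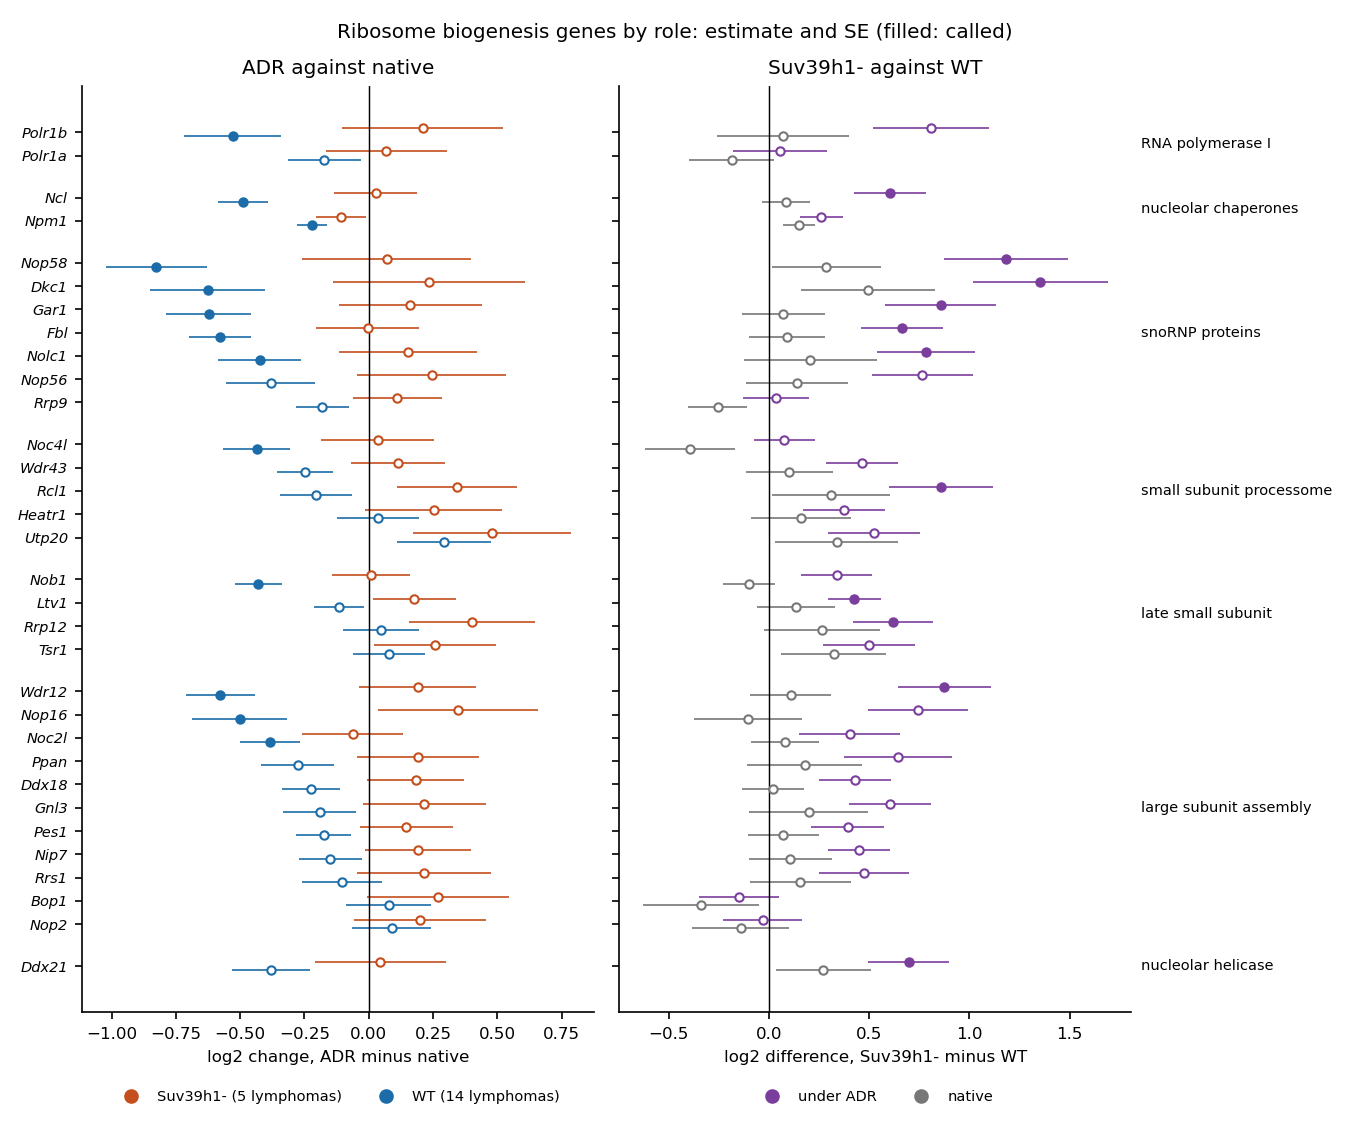
Estimate ± SE for the 32 genes (rows, ordered by role), filled where called. Left, log2 change under ADR in Suv39h1- and WT lymphomas; right, log2 difference between Suv39h1- and WT lymphomas under ADR and native. WT changes are below 0 for 26 of 32 genes, and 11 of 32 differences under ADR are called.

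Of 33 further probe sets for these genes, 6 had a WT change of opposite sign, in 5 genes, and none of these was a gene called lower. Among them, another probe set of Pes1 (mean log2 level 5.05) was called higher at 0.78 (adjusted p = 0.00254), and one of Ddx18 (6.68) at 0.51 (adjusted p = 0.0187). Another probe set of Heatr1 (5.14) was called lower at -0.67 (adjusted p = 0.0182). Further probe sets of Wdr43 (9.28) and Polr1a (7.09) were called lower too, at -0.41 (adjusted p = 0.0334) and -0.48 (adjusted p = 0.0223). Another of Polr1a (6.08) was called lower at -0.42 (adjusted p = 0.00451). Conversely, further probe sets of some genes called lower did not pass, as for Noc2l (7.10) at -0.11 (adjusted p = 0.557). With the mean of all probe sets per gene, 12 genes were called lower. Wdr12 then did not pass, at -0.27 (adjusted p = 0.110), while Polr1a passed, at -0.22 (adjusted p = 0.0325).

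Markers of other cells moved in the same cultures, where 16.1% of all genes rose and 14.1% fell in WT lymphomas under ADR. Of 29 measured fibroblast genes (matrix and mesenchymal genes that the NIH 3T3 feeders could supply), 26 rose in WT lymphomas under ADR and 0 fell. Their mean log2 level ran from 4.57 to 8.79 (mean 6.25 ± 1.21, SD, n = 14) in WT ADR, against 3.93 to 4.97 (4.48 ± 0.30, SD, n = 14) in WT native cultures. Of 15 macrophage genes 10 rose, with a list mean of 5.61 to 8.43 under ADR and 4.70 to 7.35 native. Of 11 B cell genes 4 fell, at 7.88 to 10.07 under ADR against 8.96 to 9.71 native. No T cell gene of 6 was called, with 1 at an unadjusted p under 0.05. No defining fibroblast marker was at 0, as RMA levels have a floor: Col1a1 averaged 6.30 in WT ADR and 4.04 in WT native cultures, and Col1a2 averaged 8.47 in WT ADR and 5.38 in WT native cultures. The part of these cells in the falls was not tested. The covariate that follows cannot test it, because the fibroblast change also moved with the Myc change (r = -0.78). Bulk RNA also does not show which cells made these transcripts.

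When the fibroblast list's change entered the WT fit as a covariate, the estimates for a culture with a fibroblast change of 0 lay above 0 for 31 of the 32 genes, with a median of 0.43. At that point 8 genes were called higher and 0 lower, where 6.29% of all genes were called higher and 5.69% lower. The genes called higher were Utp20 (1.19, SE 0.21, adjusted p = 0.00293), Heatr1 (0.85), Nop2 (0.85), Bop1 (0.82), Tsr1 (0.80), Rrp12 (0.77), Dkc1 (0.75) and Ltv1 (0.39). Without the covariate, Dkc1 was called lower in the fit of all arrays. It was not called with the WT differences fitted alone by limma (-0.63, adjusted p = 0.0967). The lower and the higher call of Dkc1 therefore came from different fits. Lymphoma 1467, at a fibroblast change of -0.06, was the only WT lymphoma at or below 0, so these values lie at the edge of the data. No gene was called lower both with and without the covariate.

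The 32 genes moved together from lymphoma to lymphoma. Across the 14 WT changes, the correlation of each gene with the mean of the others ran from 0.69 for Ncl to 0.98 for Gnl3, all points sharing the array pair of the culture. Ncl, Noc2l (0.81) and Npm1 (0.82) tracked the others least. The order of the WT lymphomas was not kept through treatment: the module mean under ADR correlated with that of the native culture at -0.34 (Spearman's rho -0.29, n = 14), and at -0.12 without lymphomas 2949 and 1467.

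Because the genes moved together, their promoters were read from RefSeq (GRCm38.p6), as windows of 300 bases with 250 before and 50 after the annotated start. Windows were matched by symbol for 28 of the 33 genes, and those of Npm1, Bop1, Fbl, Rrs1 and Rrp12 were not matched. Any window of the 33 genes on a particular chromosome was left out, whereas the shares over all genes below kept every chromosome. The motif CACGTG, the canonical E-box that Myc and Max can bind, reads the same on both strands. It stood once in 6 of the 28 windows (21.4%), against 8.1% of 27025 genes with a window, and 10.3% of the 9063 genes whose window GC content lay between 53.8% and 66.0%, the quartiles of these genes. The 6 genes were Ltv1, Nop2, Pes1, Tsr1, Utp20 and Wdr43. None was called in WT lymphomas under ADR on its brightest probe set, where 30.2% of all genes were called either way. Their estimates lay on both sides of 0: Wdr43 (-0.25), Pes1 (-0.18) and Ltv1 (-0.12) below, and Tsr1 (0.08), Nop2 (0.09) and Utp20 (0.29) above. Heatr1 (0.04) also lay above 0, and its window held no CACGTG. Another probe set of Pes1 was called higher and another of Wdr43 lower. Shown as examples only are the windows of Nop58 and Dkc1, which fell, and of Nop2 and Utp20, which had estimates above 0. The regions are chr1:59684756-59685055 (plus strand), chrX:75095604-75095903 (plus strand), chr6:125131633-125131932 (plus strand) and chr10:88826765-88827064 (minus strand). Each is written 5′ to 3′ on the gene's strand, with CACGTG in capitals, and a match is a description of the sequence only.
Nop58: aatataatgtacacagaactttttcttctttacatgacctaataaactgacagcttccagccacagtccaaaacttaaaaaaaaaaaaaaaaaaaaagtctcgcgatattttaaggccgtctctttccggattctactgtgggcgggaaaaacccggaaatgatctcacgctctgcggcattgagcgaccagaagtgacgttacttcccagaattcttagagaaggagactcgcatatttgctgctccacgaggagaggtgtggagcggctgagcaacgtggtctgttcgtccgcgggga
Dkc1: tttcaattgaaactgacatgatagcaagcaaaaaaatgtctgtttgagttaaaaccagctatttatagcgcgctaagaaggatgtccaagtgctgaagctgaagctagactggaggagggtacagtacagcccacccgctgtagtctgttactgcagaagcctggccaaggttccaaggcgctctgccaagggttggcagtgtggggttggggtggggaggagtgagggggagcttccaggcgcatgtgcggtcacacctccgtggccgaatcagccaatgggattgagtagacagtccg
Nop2: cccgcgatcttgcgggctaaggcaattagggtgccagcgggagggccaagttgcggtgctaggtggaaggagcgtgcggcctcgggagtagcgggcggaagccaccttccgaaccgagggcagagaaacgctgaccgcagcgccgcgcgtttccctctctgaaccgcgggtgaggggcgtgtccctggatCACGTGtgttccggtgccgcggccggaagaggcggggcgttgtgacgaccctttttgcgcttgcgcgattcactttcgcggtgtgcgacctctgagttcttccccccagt
Utp20: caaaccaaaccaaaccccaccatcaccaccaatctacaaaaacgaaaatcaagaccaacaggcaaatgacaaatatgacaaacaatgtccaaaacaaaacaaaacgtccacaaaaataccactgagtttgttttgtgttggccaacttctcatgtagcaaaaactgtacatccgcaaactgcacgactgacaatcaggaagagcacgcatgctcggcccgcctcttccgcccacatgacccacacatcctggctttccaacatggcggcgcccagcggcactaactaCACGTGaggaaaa
In Nop2 the motif began 60 bases before the annotated start, and in Utp20 it began 37 bases after it.

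Across the 14 WT lymphomas, the change of the ribosome biogenesis genes was correlated with that of Myc and inversely with that of fibroblast genes. Myc itself fell by 0.78 on the log2 scale under ADR (SE 0.16, adjusted p = 0.000621) and was lower in 12 of 14 lymphomas, at 10.51 ± 0.78 in WT ADR and 11.30 ± 0.39 in WT native cultures (SD, n = 14 each). With the fibroblast change as a covariate the Myc estimate was 0.02 and not called. The change of the module mean correlated with the Myc change at r = 0.88 (rho 0.83) and with the fibroblast change at r = -0.86 (rho -0.85). Without the 2 lymphomas farthest from the median, r was 0.79 for Myc (5560 and 2949 left out) and -0.82 for fibroblast genes (403 and 5560 left out). These are descriptions with no test, and each point's values share the same pair of arrays. With lymphomas 2949, 5043, 5766 and 6054 averaged as 1 lymphoma, a setting chosen after seeing the data, r was 0.90 and -0.87 over 11 points.

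The extremes show the spread. Lymphoma 5560 had a module change of -1.29, a Myc change of -2.43 and a fibroblast change of 3.89, and lymphoma 403 had changes of -0.88, -1.39 and 4.14. At the other end, lymphoma 2949 had changes of 0.79, 0.29 and 0.47, and lymphoma 1467 of 0.57, 0.12 and -0.06. Lymphoma 5043 kept a module change above 0 (0.38) while its Myc change was -0.69. Myc and fibroblast changes were themselves related, with r = -0.78 (permutation p = 0.00082, adjusted over 3 such relations 0.00246) and rho = -0.75 (permutation p = 0.00242, adjusted 0.00726), two-sided with 100000 resamples. Without lymphomas 403 and 5560 that r was -0.67. The levels were related at r = -0.66 under ADR (permutation p adjusted 0.0133), or -0.41 without 403 and 5560. In native cultures r was -0.52 (permutation p adjusted 0.0547), or -0.12 without 6054 and 2581. For the levels rho was -0.61 under ADR and -0.59 in native cultures (permutation p adjusted 0.0306 for each).

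**Figure D4:**
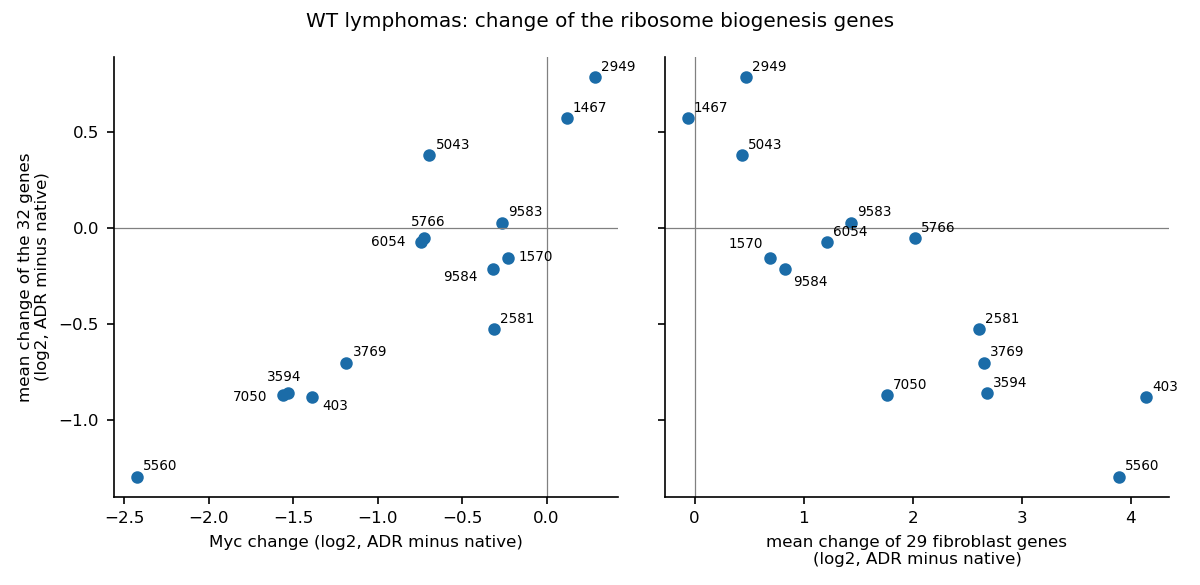
Mean change of the 32 genes under ADR (vertical axis, log2) in each of the 14 WT lymphomas against the Myc change (left) and the mean change of 29 fibroblast genes (right), both log2. Points are lymphomas by number. The module change correlates with Myc at r = 0.88 and with fibroblast genes at r = -0.86.

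Gene by gene, 30 of 32 slopes on the Myc change were called above 0, where 5.65% of all genes were (limma, adjusted over all genes). The median slope was 0.75 log2 units per log2 unit of Myc. Dkc1 had the steepest slope, 1.32 (SE 0.17, adjusted p = 0.00111), followed by Polr1b (1.00, SE 0.18, adjusted p = 0.00474), Nop16 (0.99), Nop56 (0.98), Nop58 (0.97) and Gar1 (0.92). Npm1 (0.23) and Ncl (0.37), which fell in nearly all WT lymphomas, had the smallest slopes, and neither passed (adjusted p = 0.0718 and 0.0822).

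On the fibroblast change, 30 of 32 slopes were called below 0, against 8.89% of all genes, with a median slope of -0.41. Dkc1 again led at -0.78 (SE 0.09, adjusted p = 3.8e-05), with Nop58 (-0.60), Nop16 (-0.57), Polr1b (-0.57), Gar1 (-0.54) and Nop56 (-0.53) next. Rrp9 (-0.23) and Npm1 (-0.13) did not pass. Both slopes were called for 29 genes, the Myc slope alone for Rrp9 and the fibroblast slope alone for Ncl. With Myc and fibroblast change in 1 model, the Myc slope was above 0 for all 32 genes but called for 0 of them (limma, 20 at an unadjusted p under 0.05, no other tool run), where 0.0055% of all genes were called. That share is 1 gene, Myc itself. The fibroblast slope was then called below 0 for Dkc1 alone (-0.45, SE 0.11, adjusted p = 0.0389), where 0.379% of all genes were, and 14 were at an unadjusted p under 0.05. The Dkc1 slope was not called with the mean of all probe sets (-0.61), with median centring (-0.48), with dim genes left out (-0.45) or with alike lymphomas counted once (-0.40). The call was also lost without lymphomas 1467, 2581, 403, 5043, 6054 or 9583 in turn. On the B cell list change 0 of 32 slopes were called (limma, 19 at an unadjusted p under 0.05, median slope 0.61), where 3.28% of all genes were called. Joint Myc slopes ran from 0.06 for Ncl and 0.14 for Npm1 to 0.70 for Nop56 and 0.71 for Dkc1.

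**Figure D5:**
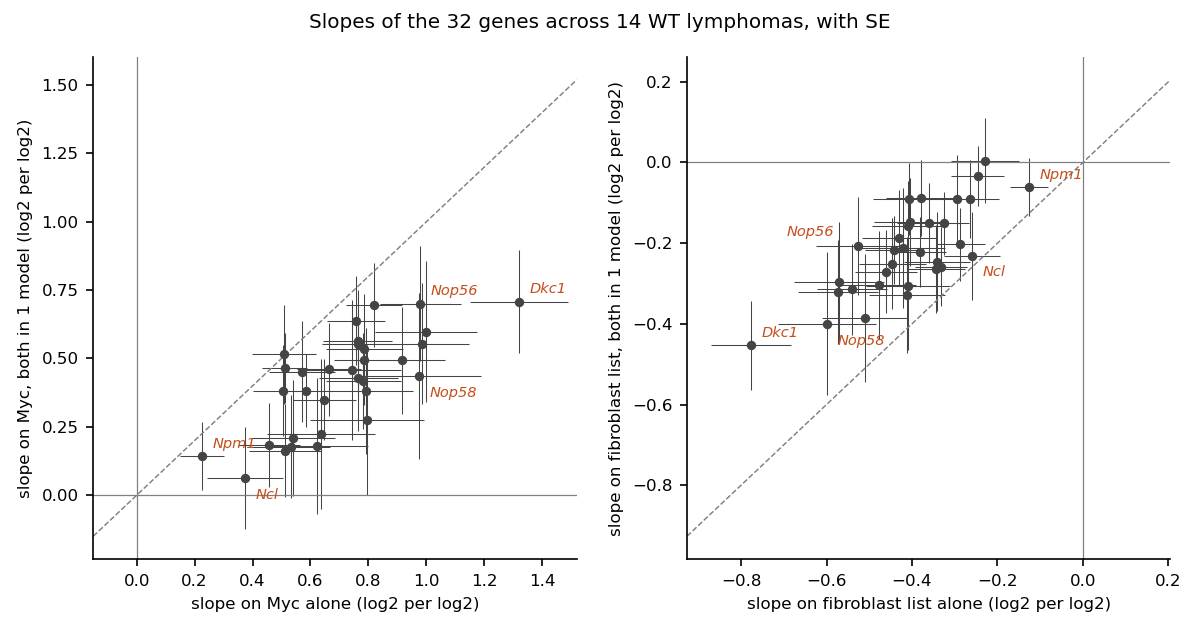
Slope of each of the 32 genes' WT change on Myc change (left) and fibroblast change (right), fitted alone (horizontal axis) and with both in 1 model (vertical axis), in log2 per log2 unit with SE. The dashed line marks equal slopes. Ncl and Npm1 have the smallest Myc slopes.

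The relations were also read within each treatment, with no test between them. Slopes on the Myc level under ADR were not fitted. In WT ADR cultures the module mean correlated with Myc at r = 0.87 (rho 0.79) and with the fibroblast list at r = -0.81 (rho -0.82), and r was 0.81 and -0.71 without the 2 farthest lymphomas. Under ADR the module mean correlated with the B cell list at r = 0.80 and with the macrophage list at r = -0.60. In native cultures these r were -0.05 and 0.21, and for the changes under ADR they were 0.54 (0.42 without lymphomas 5560 and 1570) and -0.05. Of the 32 genes, 25 had an ADR level with a slope called below 0 on the fibroblast level, where 8.07% of all genes did. Dkc1 (-0.50, SE 0.09, adjusted p = 0.00105), Gar1 (-0.43), Noc2l (-0.38), Nop16 (-0.37), Polr1b (-0.36) and Nop58 (-0.35) had the steepest slopes. That count was 13 without lymphoma 5560. In native WT cultures the module mean correlated with Myc at r = 0.60 (rho 0.36), but at 0.06 without lymphomas 2949 and 2581, so that relation rests on those lymphomas. Against the fibroblast list it correlated at r = -0.61 (rho -0.67), and at -0.52 without 6054 and 2581. That list mean ran only from 3.93 to 4.97 in native cultures, around the array medians, against 4.57 to 8.79 under ADR.

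In native cultures no gene passed for Myc (limma, 19 of 32 at an unadjusted p under 0.05, no other tool run) or for the fibroblast list (22 of 32), where 0.0055% (again Myc alone) and 0.396% of all genes were called. The native Myc slopes ran from 0.11 for Ddx18 and 0.12 for Ncl to 0.85 for Dkc1 and 0.90 for Nop16. The native fibroblast slopes ran from -1.14 for Rrp12 and -1.13 for Nolc1 to -0.23 for Npm1 and -0.01 for Ncl. Without lymphoma 2949, 5 genes were called on the native fibroblast level, and without lymphoma 1570, 1 gene was called on native Myc.

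In Suv39h1- lymphomas the 32 genes had no called change under ADR (limma, 0 at an unadjusted p under 0.05, no other tool run), where 0.011% of all genes were called. Their median change was 0.19 on the log2 scale, and 29 of 32 estimates lay above 0. Their mean change was 0.17 ± 0.25 (SD, n = 5) and 0.07 without lymphoma 1032, whose own mean change was 0.57, and it was below 0 in lymphomas 7890 (-0.02) and 4936 (-0.04). Nop58 stood at 10.99, 10.99, 11.28, 9.74 and 11.04 in lymphomas 5783, 7890, 9250, 1032 and 4936 under ADR, against 10.90, 11.11, 11.10, 9.30 and 11.28 native. Dkc1 stood at 11.15, 11.43, 11.65, 10.36 and 11.50 under ADR and 11.10, 11.38, 11.35, 9.45 and 11.63 native, in the same order of lymphomas. Lymphoma 1032 was lowest for both genes under each treatment, and it also had the largest change of the 5 lymphomas in both. The largest estimates were Utp20 at 0.48 (SE 0.31, adjusted p = 0.623) and Rrp12 at 0.40 upward, and Npm1 at -0.11 and Noc2l at -0.06 downward. The 95% intervals still reached from -0.61 for Nop58 to 1.11 for Utp20. These intervals use the spread shared by all groups of the fit, WT included.

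The remaining genes with values by array overlapped between the treatments too. Gar1 stood at 10.41, 10.21, 10.55, 9.87 and 11.07 under ADR, against 9.99, 10.33, 10.48, 9.47 and 11.02 native, in lymphomas 5783, 7890, 9250, 1032 and 4936. Ncl stood at 12.84, 13.06, 12.80, 12.40 and 12.95 under ADR and 12.77, 13.13, 13.02, 12.17 and 12.82 native. Both genes overlapped between the treatments. Polr1b stood at 8.24, 9.03, 9.48, 7.87 and 9.20 under ADR, against 8.40, 9.21, 9.22, 7.04 and 8.89 native. Utp20 stood at 8.74, 8.68, 9.25, 8.14 and 8.55 under ADR and 7.86, 8.77, 8.67, 7.11 and 8.55 native, higher under ADR by the most in 5783, 9250 and 1032. Tsr1 stood at 10.17, 10.36, 10.56, 9.19 and 10.32 under ADR, against 9.76, 10.28, 10.14, 8.51 and 10.62 native. In both genes lymphoma 1032 was lowest under each treatment. Polr1a had its highest level of 8.33 in lymphoma 9250 under ADR, against a highest native level of 8.24 in lymphoma 4936 and a lowest of 6.92 in 1032. Nop2 stood at 8.46, 9.02, 9.30, 8.40 and 8.99 under ADR, against 8.32, 8.90, 9.12, 7.71 and 9.13 native. Npm1 stood at 12.94, 13.34, 13.31, 13.01 and 13.13 under ADR, against 13.10, 13.29, 13.46, 13.14 and 13.27 native. Polr1a and Nop2 had estimates of 0.07 and 0.20 and overlapped between treatments, while Npm1 was lower under ADR in all but lymphoma 7890. Myc was 11.55 ± 0.72 in Suv39h1- ADR and 11.20 ± 1.08 in Suv39h1- native cultures (SD, n = 5 each), and the fibroblast list was 4.81 ± 0.74 in Suv39h1- ADR and 4.64 ± 0.51 in Suv39h1- native cultures.

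The difference between the responses, Suv39h1- minus WT, was above 0 for all 32 genes, with a median of 0.41, and called for 0 (limma, 7 at an unadjusted p under 0.05, no other tool run), where 0.341% of all genes were called. It was largest for Nop58 (0.90, SE 0.38, adjusted p = 0.211) and Dkc1 (0.86, adjusted p = 0.286) and smallest for Nop2 and Npm1 (0.11 each). The fall called in WT and not in Suv39h1- lymphomas was therefore not shown to differ between the genotypes. Myc had a difference of 1.14 (adjusted p = 0.0902), and the 29 fibroblast genes one of -1.72 in the median, with 0 called and 23 at an unadjusted p under 0.05.

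Between genotypes, native levels were not called different for any of the 32 genes (limma, 0 at an unadjusted p under 0.05, no other tool run), where 1.09% of all genes were called. The estimates, Suv39h1- minus WT, ran from -0.39 for Noc4l and -0.34 for Bop1 to 0.34 for Utp20 and 0.49 for Dkc1. Their mean was 0.09, and ran from -0.01 without Suv39h1- lymphoma 4936 to 0.34 without 1032. Under ADR, 11 of 32 genes were higher in Suv39h1- than in WT lymphomas and 0 were lower, where 6.3% of all genes were higher and 6.3% lower. The median difference was 0.51, against -0.04 over all genes. Dkc1 led at 1.35 (SE 0.34, adjusted p = 0.0146), or 2.56-fold, then Nop58 at 1.18 (SE 0.31, adjusted p = 0.0186), Wdr12 at 0.88 (adjusted p = 0.0201), Rcl1, a cyclase-like factor of the processome, at 0.86, Gar1 at 0.86 and Nolc1 at 0.78. Ddx21, Fbl, Rrp12, Ncl and Ltv1 were the other genes called. The lowest Dkc1 level under ADR in the Suv39h1- group was 10.36, which lay below the highest WT ADR level of 10.62, so the groups overlapped. Myc differed by 1.04 (adjusted p = 0.0737), and the fibroblast genes by -1.52 in the median, with 2 of 29 lower.

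This count rests on few lymphomas. It was 0 without Suv39h1- lymphoma 9250, 1 without 7890, 2 without 4936, 7 without 5783 and 20 without 1032. Without WT lymphoma 3594, 5766 or 7050 it was 5, and without 3769 or 6054 it was 6. It was 1 with alike lymphomas counted once, 6 after quantile normalization and 24 after median centring, which moved every gene of this comparison by 0.21.

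In the 3 Suv39h1ER cultures no gene was called in any of the comparisons by limma, with no other tool run. For ADR with 4OHT against ADR alone, 3 genes were at an unadjusted p under 0.05, and 0.143% of all genes were called. The median change was -0.22, and 29 of 32 estimates lay below 0. The mean change was -0.21 ± 0.25 (SD, n = 3), and -0.06 without SuvER-4146. Ncl stood at 12.24, 12.06 and 12.28 under ADR with 4OHT in cultures SuvER-4146, SuvER-4936 and SuvER-5043, against 12.97, 12.69 and 12.78 under ADR alone and 12.64, 12.30 and 12.73 native. The 4OHT values lay below all others, but the change against ADR alone, -0.62 (SE 0.21, adjusted p = 0.206), did not pass. Npm1 was likewise lowest under ADR with 4OHT, at 12.76, 12.72 and 12.80 under ADR with 4OHT, against 13.15, 12.83 and 13.09 under ADR alone and 13.18, 13.05 and 13.15 native. Under ADR alone, Ncl lay above and Npm1 below the native value in each culture. Fbl had a change of -0.55 against ADR alone (adjusted p = 0.385), while Polr1a (0.08) and Noc2l (0.11) had the largest estimates upward.

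Nop58 stood at 10.30, 10.74 and 10.89 under ADR with 4OHT, 11.22, 10.94 and 11.05 under ADR and 10.96, 10.58 and 10.81 native, again in that order of cultures. Dkc1 stood at 10.63, 10.75 and 11.07 under ADR with 4OHT, 11.16, 10.99 and 11.15 under ADR and 10.94, 10.46 and 11.00 native. For both genes SuvER-4146 had the lowest 4OHT value, and the 4OHT and native values overlapped. Gar1 stood at 10.09, 10.11 and 10.44 under ADR with 4OHT, 10.68, 10.46 and 10.56 under ADR and 9.78 to 10.60 native. Polr1b stood at 8.32, 8.31 and 8.53 under ADR with 4OHT, 8.68, 8.51 and 8.90 under ADR and 8.05 to 8.80 native. For Gar1 all 4OHT values lay below those under ADR alone, while for Polr1b they overlapped. Utp20 stood at 7.96, 8.29 and 8.63 under ADR with 4OHT, 8.47, 8.05 and 8.56 under ADR and 7.25 to 8.71 native. Nop2 stood at 8.78, 8.90 and 9.20 under ADR with 4OHT, 8.98, 8.88 and 9.04 under ADR and 8.93, 7.82 and 8.97 native. In Utp20 and Nop2 the low native value belonged to SuvER-4936. Tsr1 stood at 9.86, 9.81 and 10.21 under ADR with 4OHT, 10.10, 9.88 and 10.03 under ADR and 9.72, 9.67 and 9.80 native. Polr1a stood at 7.48, 7.88 and 7.99 under ADR with 4OHT, 7.87, 7.66 and 7.58 under ADR and 7.98, 7.62 and 8.02 native. For Tsr1 all native values lay below the others, and for Polr1a the treatments overlapped. Against native cultures, ADR with 4OHT gave a median change of 0.01, 1 gene at an unadjusted p under 0.05 and 0 called, where 2.95% of all genes were called. The largest estimates there were Gnl3 at -0.51 and Wdr12 at -0.42 downward, and Bop1 at 0.54 and Nop2 at 0.39 upward. Without SuvER-4936, Bop1 was at 0.12 and Nop2 at 0.04, and without SuvER-4146, Gnl3 was at -0.21. ADR alone against native gave a median change of 0.25 and 0 genes at an unadjusted p under 0.05, where 0.126% of all genes were called. Its largest estimates were Noc2l at -0.37 and Gnl3 at -0.22 downward, and Bop1 at 0.53 and Rrp12 at 0.47 upward. Without SuvER-4936, Bop1 was at 0.15, Noc2l at -0.10 and Gnl3 at 0.03, and the mean over the 32 genes was 0.09, against 0.18 with it.

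The 95% intervals of these 3 comparisons, which share cultures and native or ADR arrays, ran as wide as -1.30 (Nop58, 4OHT against ADR alone) and 1.30 (Dkc1, ADR against native). These intervals and the SEs rest on the spread shared by all groups of the fit, not on these cultures alone. In Suv39h1ER cultures Myc was 11.35 ± 0.22 under ADR with 4OHT, 10.91 ± 0.37 under ADR and 11.20 ± 0.18 native, and the fibroblast list was 4.40 ± 0.29, 5.13 ± 0.57 and 4.06 ± 0.01 in the same order (SD, n = 3 each). The module mean and the fibroblast list were both highest under ADR alone, where Myc was lowest. The arrays of a culture tracked each other poorly, and the fits without the block called no gene in these comparisons either.

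The wider pathway was read from another list. Of 92 measured other ribosome biogenesis genes, 31 fell and 3 rose in WT lymphomas under ADR (14.1% and 16.1% of all genes), with a median change of -0.22. The largest falls were in Ruvbl2 (-0.80, SE 0.14, adjusted p = 6.53e-05), an ATPase of snoRNP assembly, Tcof1 (-0.66), a nucleolar factor of rRNA transcription, Emg1 (-0.63), an rRNA methyltransferase, and Taf1b (-0.61), a subunit of the RNA polymerase I promoter factor. Rrn3, the initiation factor of RNA polymerase I, rose by 0.49 (SE 0.12, adjusted p = 0.00242). In these 92 genes 59 Myc slopes were called above 0 (5.65% of all genes) and 65 fibroblast slopes below 0 (8.89% of all genes), and 27 genes were higher in Suv39h1- than in WT lymphomas under ADR (6.3% of all genes). In Suv39h1- lymphomas 0 were called under ADR (limma, 0 at an unadjusted p under 0.05). Under ADR with 4OHT, Utp11 (-0.59) and Ddx47 (-0.44) fell against native cultures, 2.17% of the list, near the 1.57% of all genes called lower. These lists, like the 32 genes, were chosen with results of these data known.

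Of the 10 Myc network genes, Myc, Mxd3 (-1.25, adjusted p = 3.27e-05) and Mxi1 (-0.30) fell in WT lymphomas, and Mxd4 (0.63, adjusted p = 0.0104), Mnt (0.43, adjusted p = 0.000283) and Mlx (0.28) rose. Mxd3, Mxd4, Mxi1 and Mnt compete with Myc for Max, and Mlx pairs with some of them. Max (-0.27), Mycn (-0.15), Mga (-0.09) and Mxd1 (0.06) did not pass. Of all genes, 14.1% fell and 16.1% rose in WT lymphomas under ADR. None of the network genes was called in Suv39h1- lymphomas under ADR (limma, 2 of 10 at an unadjusted p under 0.05). The share over all genes there was 0.011%. Among 22 other Myc targets 11 fell and 1 rose in WT lymphomas, 10 had a Myc slope called above 0 and 12 a fibroblast slope called below 0, with 1 called above. All 11 replicative helicase genes, which unwind DNA in S phase, fell (median -1.23) and 0 of their fibroblast slopes were called, while 1 Myc slope was called below 0 and 0 above. Of all genes, 5.65% had a Myc slope called above 0 and 4.62% below, and 9.4% a fibroblast slope above 0 and 8.89% below.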

How the data were processed

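RNA from 47 arrays of 22 cultures was analysed. The authors deposited log2 levels for 45101 probe sets, and the submitters' processing notes name RMA, oligo and R 3.5.0. No source used here says if all arrays were normalized together. Genes were named by the platform annotation, symbols were updated by Entrez number, and 34958 probe sets carried 1 symbol, 932 several and 9211 none. The brightest probe set stood for each of 18194 genes, with no filter on dim genes. No detection call or scan date entered, and the number of arrays limits the precision.

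Tests used limma 3.58.1 (lmFit, eBayes) in R 4.3.3, two-sided, with calls at an adjusted p under 0.05 (Benjamini-Hochberg, all genes). Treatment effects came from a single fit of 47 arrays with culture as a block, as the series describes matched pairs. The correlation of paired deviations exceeded 0.1 in 10 of 14 WT, 5 of 5 Suv39h1- and 2 of 9 Suv39h1ER pairs. Genotypes were compared over 19 arrays without a block, and slopes over 14 WT lymphomas. Whether replicates came from separate mice is not stated beyond their lymphoma numbers, so p-values measure the spread between these cultures. In the treatment fit that spread was 1 estimate shared by all groups. The WT spread so entered the errors of the smaller groups, and their spread entered the WT errors. With the WT differences fitted alone by limma, the Dkc1 and Polr1b calls were lost (adjusted p = 0.0967 and 0.0873). The SD of the module change was 0.61 in WT, 0.25 in Suv39h1- and 0.16 to 0.32 in the Suv39h1ER comparisons.

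The 33 genes and the other lists (fibroblast 30, macrophage 16, B cell 12, T cell 8, other ribosome biogenesis 97, Myc network 10, other Myc targets 24, replicative helicase 11) were chosen with earlier results of these data known. All 33 genes may be named. Full statistics go to at most 6 called genes a direction and, where none was called, values to the 2 largest each way; values by array go to the 3 largest changes each way in WT and to Ncl, Npm1, Polr1a and Polr1b. Of the other lists, the Myc network and at most 4 other ribosome biogenesis genes a comparison are named. Tested on simulated data of 18194 genes, the fit recovered 72% of log2 changes of 0.5 and 92% of 1 for WT ADR vs native. The shares were 33% and 78% for Suv39h1- ADR vs native, and 13% and 58% for Suv39h1ER ADR 4OHT vs native. In the simulation every group had the spread of the WT lymphomas, drawn independently for each gene. The shares for Suv39h1- and Suv39h1ER cultures are therefore not for their own spread. Alternatives were the block, probe set choice, normalization, centring, a floor of log2 6, alike lymphomas counted once, a fibroblast covariate and each lymphoma left out. Figures were drawn with matplotlib 3.10.9.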

Additional observations from a re-analysis of the deposited data

Results flagged for a closer look

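Of 57 sets of values tested for a sample far from the others of its group, 5 stood out, and chance alone gives about 1 in 20. In Suv39h1- lymphoma 1032, Dkc1 was at 9.45 in the native culture, against 11.10 to 11.63 in the other 4 lymphomas. Nop58 was at 9.30 in the native culture of 1032, against 10.90 to 11.28, and at 9.74 under ADR, against 10.99 to 11.28. Tsr1 was at 9.19 under ADR in 1032, against 10.17 to 10.56. Lymphoma 1032 also had the lowest Myc level of the native Suv39h1- group, 9.61. Its ADR array had the lowest median, 4.07, while its native array lay within the 4.32 to 4.43 of all other arrays. Npm1 had a change of 0.0455 under ADR in Suv39h1- lymphoma 7890, against -0.16 to -0.12 in the others. The part of the array median in these values was not tested.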

How the results depend on the processing

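Each main result was scored under each alternative other than a left-out lymphoma, and 241 such pairs were scored the same and 11 as moved. A count of called genes could shift a little and still be scored the same, as without the block in WT lymphomas. Of the pairs for single genes, 500 kept direction and call, 20 lost and 4 gained the call, and 20 turned. The fibroblast covariate moved the WT count to 0 lower and 8 higher and the WT mean change to 0.44, its estimate being for a culture with no fibroblast change. With it, WT estimates turned for Nop58 (0.23), Dkc1 (0.75), Gar1 (0.33), Fbl (0.095), Wdr12 (0.20), Polr1b (0.48), Npm1 (0.0037), Polr1a (0.54) and Myc (0.022). Median centring moved every gene by -0.11 in WT lymphomas and turned Tsr1 (-0.0319) and Nop2 (-0.021) there and Noc2l (0.0062) in Suv39h1- lymphomas. Counting alike lymphomas once turned WT Tsr1 (-0.0918) and Nop2 (-0.0656) and the joint Myc slope of Ncl (-0.056). The mean of all probe sets turned Bop1 (-0.0337, Suv39h1ER ADR against native), Wdr12 (0.062, Suv39h1ER ADR 4OHT against native), Noc4l (0.0225, Suv39h1- against WT native) and the joint Myc slope of Ncl (-0.0151), and called 1 gene on the native fibroblast level. Quantile normalization turned the native fibroblast slope of Ncl (0.0031). Genes higher in Suv39h1- than in WT lymphomas under ADR numbered 6 with quantile normalization, 24 with median centring and 1 with alike lymphomas counted once. The joint fibroblast slope was called for 0 genes with the mean of all probe sets, median centring, dim genes left out or alike lymphomas counted once.

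With each lymphoma left out, the genes called ran from 9 to 17 for WT ADR against native (mean change -0.36 to -0.20), 0 to 20 for Suv39h1- against WT under ADR, 24 to 31 for Myc slopes, 27 to 31 for fibroblast slopes, 0 to 2 for joint fibroblast slopes, 0 to 1 and 0 to 5 for native slopes on Myc and on fibroblast genes, and 13 to 26 for ADR slopes on fibroblast genes. Estimates that turned sign had these ranges: Tsr1 in WT ADR against native from -0.0012 to 0.1751, Nop2 in WT ADR against native from -0.0023 to 0.1632, Suv39h1- minus WT response of Nop2 from -0.0119 to 0.2016, Gnl3 in Suv39h1ER ADR against native from -0.3645 to 0.0332, Myc in Suv39h1ER ADR against native from -0.5086 to 0.0131, Myc in Suv39h1ER ADR 4OHT against native from -0.0643 to 0.3045, Polr1a in Suv39h1ER ADR 4OHT against ADR from -0.0808 to 0.3192, Noc2l in Suv39h1ER ADR 4OHT against ADR from -0.1136 to 0.3143, joint Myc slope of Ncl from -0.0333 to 0.1740, native Myc slope of Ddx18 from -0.0317 to 0.2041, native Myc slope of Ncl from -0.0294 to 0.1717 and native fibroblast slope of Ncl from -0.0552 to 0.1741.

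The fits without the replicate block, which drop the pairing of arrays by culture, called 10 genes lower in WT lymphomas (13 with it) and 0 in the Suv39h1- and Suv39h1ER comparisons, as with it. The cause of these shifts was not tested beyond the construction named. The number of arrays limits precision most in the Suv39h1ER groups of 3.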
